A study of Homo sapiens with 27 samples.

Results

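The 45 genes described here encode the subunits, assembly chaperones and regulators of the proteasome. They were chosen by name, as protein-coding genes whose whole symbol is PSMA, PSMB, PSMC, PSMD, PSME, PSMF or PSMG followed by digits, with a mean above 1 FPKM (mapped fragments scaled by the length of the transcript and by the size of the library) over all libraries. Of 34464 genes in the table, 47 carry such a symbol. PSMA8 and PSMB11, which encode the subunits specific to testis and thymus, had means of 0.00365 and 0.00351 FPKM and were above 0 in 5 and 6 of the 27 libraries, so they fell under the minimum. The lowest mean inside it was 11.8 FPKM, for PSMG4. PSMB3, of the beta ring, was not analysed here.

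The libraries came from U2OS cells, a human osteosarcoma line, infected with lentiviruses that carried a control shRNA, the shRNA TPR A or the shRNA TPR D. Both TPR shRNAs target TPR, a protein of the nuclear pore basket, with different sequences. From each culture poly(A)+ RNA was sequenced from a nuclear fraction, a cytoplasmic/ER fraction and total RNA, with 3 replicates each. The labels do not say how the replicates were made, so p-values measure only the spread between these samples, and all of them rest on 1 cell line.

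The 26S proteasome degrades proteins that carry ubiquitin. Its 20S core is a stack of alpha and beta rings, with the proteolytic sites in the beta rings, and its 19S cap recognises, unfolds and feeds the substrate through a ring of ATPases. Dedicated chaperones assemble both parts, and activators such as PSME1 with PSME2 can take the place of the cap. After interferon, PSMB8, PSMB9 and PSMB10 replace the catalytic subunits PSMB5, PSMB6 and PSMB7 in new cores, which changes the peptides made for antigen presentation. Proliferating cells transcribe these genes together, and the transcription factor NFE2L1 raises them when proteasome activity falls.

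TPR itself was at 25.3 to 28.2 FPKM in the control total libraries, 3.44 to 4.70 with TPR A and 3.23 to 6.01 with TPR D. Most mesenchymal markers listed for the cell check were present, with VIM at 854 to 2662 FPKM and 5 of 6 above a mean of 1, although COL1A2 stayed at or below 0.744 FPKM. Of 4 epithelial markers only EPCAM had a mean above 1 (1.43 to 6.87 FPKM), and of 3 blood markers none did. From the steps that single reads leave in low values, 1 FPKM on 1 kb stood for 31.7 to 87.3 reads in a library.

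Both the nuclear and the total library labelled control replicate 2 went against their labels. In the nuclear one, mRNAs of the mitochondrial genome made up 21.8% of all FPKM, against 0.774% to 2.42% in the other nuclear libraries, and in the total one 0.738% against 15.8% to 24.7%. The library labelled nuclear correlated better with the other total libraries (r = 0.977 across genes) than with the other nuclear ones (0.944), and the library labelled total better with nuclear (0.973) than with total ones (0.940). The proteasome mRNAs followed this: their summed level was 12117 FPKM in the library labelled total, control replicate 2, and 4675 to 7008 FPKM in the other total libraries, while it was 6937 FPKM in the library labelled nuclear, control replicate 2, and 7979 to 10785 FPKM in the other nuclear ones. The labels were kept, and the main results are also given without control replicate 2.

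Proteasome mRNAs were abundant in all libraries. The median of the members' mean levels was 244 FPKM for the 16 genes of the 20S core, 147 FPKM for the 17 genes of the 19S cap, 64.9 FPKM for the 7 assembly genes and 154 FPKM for the 5 genes of activators and the inhibitor, against 15.4 FPKM over all protein-coding genes tested. Without control replicate 2, the members took 0.764% to 0.917% of all FPKM in the total libraries, 1.01% to 1.25% in the nuclear and 0.746% to 0.856% in the cytoplasmic/ER libraries. A higher share was not a higher level. Their summed level overlapped between nuclear (7979 to 10785 FPKM) and cytoplasmic/ER libraries (7552 to 11775 FPKM). In these libraries mRNAs of the mitochondrial genome took 0.774% to 2.42% (nuclear) and 26.5% to 37.9% (cytoplasmic/ER) of all FPKM. Total RNA did not lie between the fractions. The members' summed level was 4675 to 7008 FPKM there, below every library of both fractions. MALAT1, a nuclear lncRNA, was at 71.6 to 207 FPKM in total, 16.3 to 40.1 FPKM in nuclear and 2.27 to 16.1 FPKM in cytoplasmic/ER libraries. The reason was not tested.

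The 7 alpha subunits, which form the outer rings and the gate, were close to each other, from 230 FPKM (PSMA2) to 337 FPKM (PSMA6). The 6 constitutive beta subunits ran from 85.0 FPKM (PSMB2) to 364 FPKM (PSMB4). The catalytic subunits were at 297 FPKM (PSMB5, the chymotrypsin-like activity), 187 FPKM (PSMB6, the caspase-like activity) and 205 FPKM (PSMB7, the trypsin-like activity). Their inducible counterparts were lower, at 87.6 FPKM (PSMB8), 71.3 FPKM (PSMB9) and 37.1 FPKM (PSMB10). In the cap, the 6 ATPases lay between 108 FPKM (PSMC2) and 358 FPKM (PSMC3). The 11 non-ATPase subunits had the widest range, from 52.7 FPKM for PSMD12 to 639 FPKM for PSMD2, a scaffold subunit that binds ubiquitin-like domains. Among the assembly genes PSMG4 was lowest (11.8 FPKM) and PSMG2, which pairs with PSMG1 to order the alpha ring, was highest (121 FPKM). The large activator PSME4 was at 30.2 FPKM and the inhibitor PSMF1 at 223 FPKM.

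**Figure D1:**
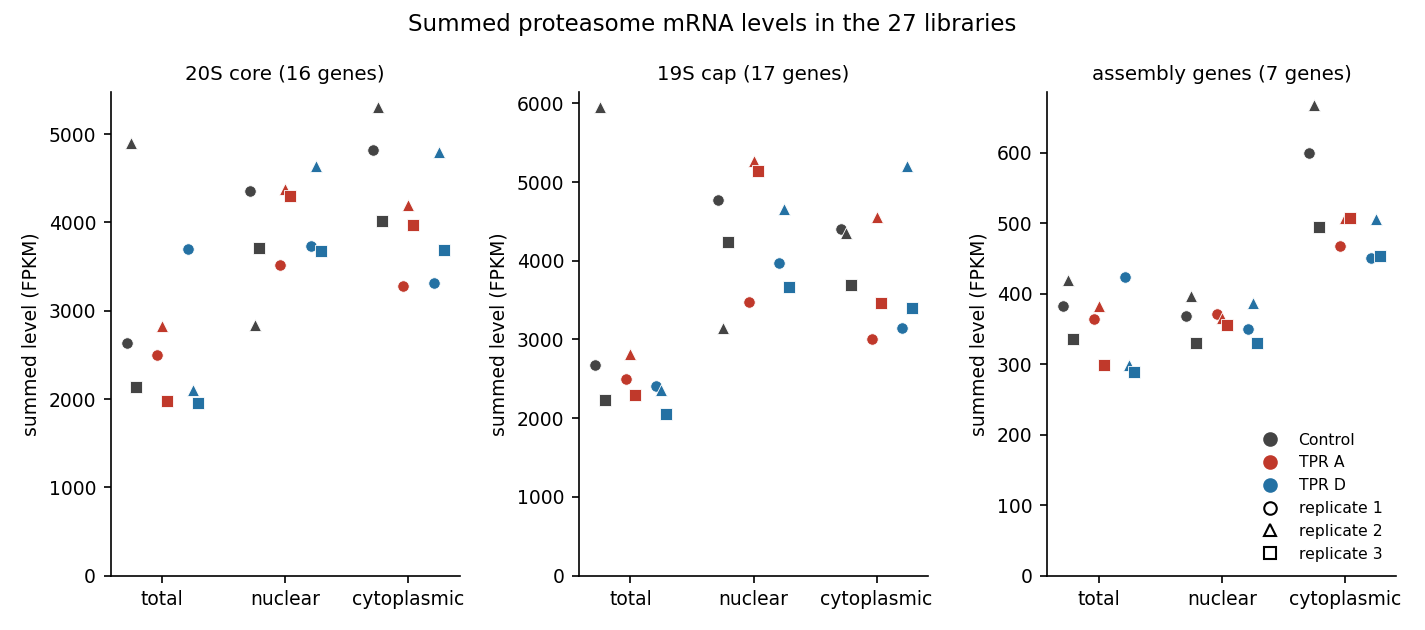
Summed FPKM (axes from 0, of unequal range) of the 20S core, 19S cap and assembly genes in each of the 27 libraries, by fraction, with colours for the shRNA and shapes for the replicate. Each point is 1 library. The total library labelled control replicate 2 (grey triangle) stands above the other total libraries for core and cap, and TPR D replicate 1 (blue circle) is second for the core but not for the cap.

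Core and cap mRNAs summed to similar levels in most libraries. The summed level of the 20S genes divided by that of the 19S genes was 0.830 to 1.01 in the 9 nuclear libraries and 0.921 to 1.22 in the 9 cytoplasmic/ER libraries. In total RNA it was 0.824 to 1.01 in 8 libraries and 1.54 in TPR D replicate 1. In that library the 20S genes summed to 3704 FPKM and the 19S genes to 2407 FPKM. Against control replicate 1 all 16 core genes were higher there, with a median log2 difference of 0.48, while the median of the 17 cap genes was -0.08. The nuclear library (0.939) and the cytoplasmic/ER library (1.05) with that replicate number were within the range of the others, so the shift was seen in 1 library of the 3 that carry that number.

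The inducible subunits were present in all 27 libraries without an added cytokine in the labels. In total RNA PSMB8 was at 0.277 ± 0.0436 of PSMB5 with the control shRNA, 0.347 ± 0.0182 with TPR A and 0.270 ± 0.0239 with TPR D (mean ± SD, n = 3), and PSMB9 was at 0.366 ± 0.0850, 0.405 ± 0.0306 and 0.401 ± 0.0448 of PSMB6. For PSMB10 and PSMB7 the ratio was 0.188 ± 0.0218, 0.163 ± 0.0248 and 0.199 ± 0.0374. The values with TPR A for PSMB8 to PSMB5 did not overlap the control values in total RNA (0.332 to 0.367 against 0.293, 0.228 and 0.311 in replicates 1 to 3), and those with TPR D did. Control replicate 2 was also the lowest control for PSMB9 to PSMB6, at 0.276 where the other two were at 0.444 and 0.380. In control cells PSMB10 to PSMB7 was lower in nuclear RNA (0.140, 0.154 and 0.135) than in cytoplasmic/ER RNA (0.234, 0.288 and 0.235).

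With 3 values a group an exact test of a ratio cannot go below the threshold, and none was run. Reads of PSMB8 and PSMB9 may be shared in part, because the genes overlap on chromosome 6 on opposite strands and the strand setting of the quantification is not given in the sources used here. In all, 21 of the 45 genes overlap another gene of the table and 7 do so on the same strand, among them on the same strand PSMC2 with PMPCB (a mean of 54.4 FPKM), PSMB10 with ENSG00000261884 (7.33 FPKM) and PSMA2 with ENSG00000256646 (10.8 FPKM).

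Promoters were searched for the motif of NFE2L1 because it is the factor known to raise these genes together. Of the 45 genes, 39 had a promoter in the RefSeq table (GRCh38.p14, 250 bases before to 50 after the start). An antioxidant response element core, TGACNNNGC on either strand, was found in 12 of them (30.8%), against 15.1% of the 9968 promoters of protein-coding genes tested and 13.6% of all 27305 promoters. CCAAT on either strand was found in 17 (43.6% against 36.7% of those tested), the ETS core CCGGAAG in 12 (30.8% against 19.7%), the motif of nuclear respiratory factor 1 in 5 (12.8% against 12.0%) and TATAAA in 4 (10.3% against 5.39%). A match is a match of letters, not a measured site. The members are spread over 17 chromosomes, with 7 on chromosome 14 and 6 on chromosome 17, and 10 of them (22.2%) start within 1000 nt of the start of a gene on the other strand, as 20.4% of protein-coding genes do.

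The following windows hold the element core in capitals, 5′ to 3′ on the strand of the gene. The core is read from the other strand in PSMB9 and PSME4. Matches in PSMC4, PSMD1, PSMD3, PSME1, PSME2 and PSMG1, and a second match in PSMD9, are not shown. The windows thus cover 6 of the 12 members with a match. They lie on the minus strand of chromosome 9 for PSMD5 (chr9:120843038-120843066), on the plus strand of chromosome 12 for PSMD9 (chr12:121888678-121888706), on the plus strand of chromosome 6 for PSMB9 (chr6:32854034-32854062), on the minus strand of chromosome 17 for PSMD12 (chr17:67366724-67366752), on the plus strand of chromosome 18 for PSMG2 (chr18:12658689-12658717) and on the minus strand of chromosome 2 for PSME4 (chr2:53971009-53971037). All 6 lie before the annotated start, while the matches of PSMD1 and PSMC4 and a match of PSMD3, not shown, lie after it.
PSMD5: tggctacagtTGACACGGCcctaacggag
PSMD9: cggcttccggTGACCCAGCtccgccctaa
PSMB9: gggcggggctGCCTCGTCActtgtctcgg
PSMD12: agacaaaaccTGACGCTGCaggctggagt
PSMG2: cagtttcccgTGACCCCGCggccgctctg
PSME4: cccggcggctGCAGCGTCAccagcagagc

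Next, the distribution of each mRNA between nucleus and cytoplasm was described as the N/C ratio, the log2 difference of the nuclear and the cytoplasmic/ER level of a culture. In control cells 16 of the 45 members passed the test (limma, adjusted p under 0.05), 4 with a higher level in the nuclear fraction and 12 with a lower one. Over all genes tested 39.4% passed, 20.2% higher and 19.2% lower, so the members were called about as often as other genes. Since the values are relative to the RNA in each fraction, an N/C ratio of 0 is the level of a typical gene and not an equal number of molecules.

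The 4 mRNAs higher in the nuclear fraction came from the cap and the large activator. PSMD1, the largest scaffold subunit of the cap, had N/C ratios of 1.05, 0.77 and 1.23 in the 3 control cultures (mean 1.02, SE 0.27, limma adjusted p = 0.00454). PSMD12, a subunit of the lid, had 1.03, 0.82 and 0.89 (adjusted p = 0.00128 in limma). PSME4 had 0.82, 0.78 and 0.64 and the ATPase gene PSMC6 1.07, 0.29 and 0.66. All 3 control cultures were above 0 for each of the 4 genes.

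The lowest ratios belonged to assembly genes and inducible subunits. PSMG4 had -1.66, -1.11 and -1.71 (mean -1.49, SE 0.36, limma adjusted p = 0.00232) and its partner PSMG3 had -1.31, -1.41 and -1.30 (mean -1.34, SE 0.28, adjusted p = 0.000836 in limma). PSMB10 had -0.80, -1.80 and -0.71 and PSMB9 -0.83, -1.67 and -0.77. All 12 called values were below 0 in each culture, and the cytoplasmic/ER level of PSMG4 (20.7, 22.1 and 13.2 FPKM) exceeded the nuclear level (6.34, 9.87 and 3.87 FPKM) without overlap. The others were PSMA7, PSMB6, PSMD8, PSMD9, PSMG2, PSME1, PSME3 and PSMF1, with means from -0.84 (PSMA7) to -0.56 (PSME3).

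By part of the complex, the median N/C ratio in control cells was -0.34 for the 20S core (0 called higher, 4 lower), 0.21 for the 19S cap (3 higher, 1 lower), -0.71 for the assembly genes (0 higher, 4 lower) and -0.56 for activators and the inhibitor (1 higher, 3 lower). Without control replicate 2 the medians were -0.14, 0.39, -0.59 and -0.47, in the same order, and 11 members passed (6 higher, 5 lower) where 29.8% of all genes did. Of these 11, 9 were among the 16. PSMA7, PSMB6, PSMB10, PSMD8, PSME1, PSME3 and PSMF1 no longer passed, and PSMC2 and PSMD14 were gained.

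The protocol took the nuclear and the cytoplasmic/ER fraction from the same cells. Libraries of both with the same replicate number deviated from their group means together (r = 0.223 to 0.469 across genes in the 9 cultures). The fit was therefore repeated with the culture as a block. Then 24 members passed in control cells, the 16 and PSMA6, PSMB4, PSMB8, PSMD6, PSMD7, PSMD14, PSME2 and PSMG1, where 54.5% of all genes did. This fit kept control replicate 2 and was not repeated without it.

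**Figure D2:**
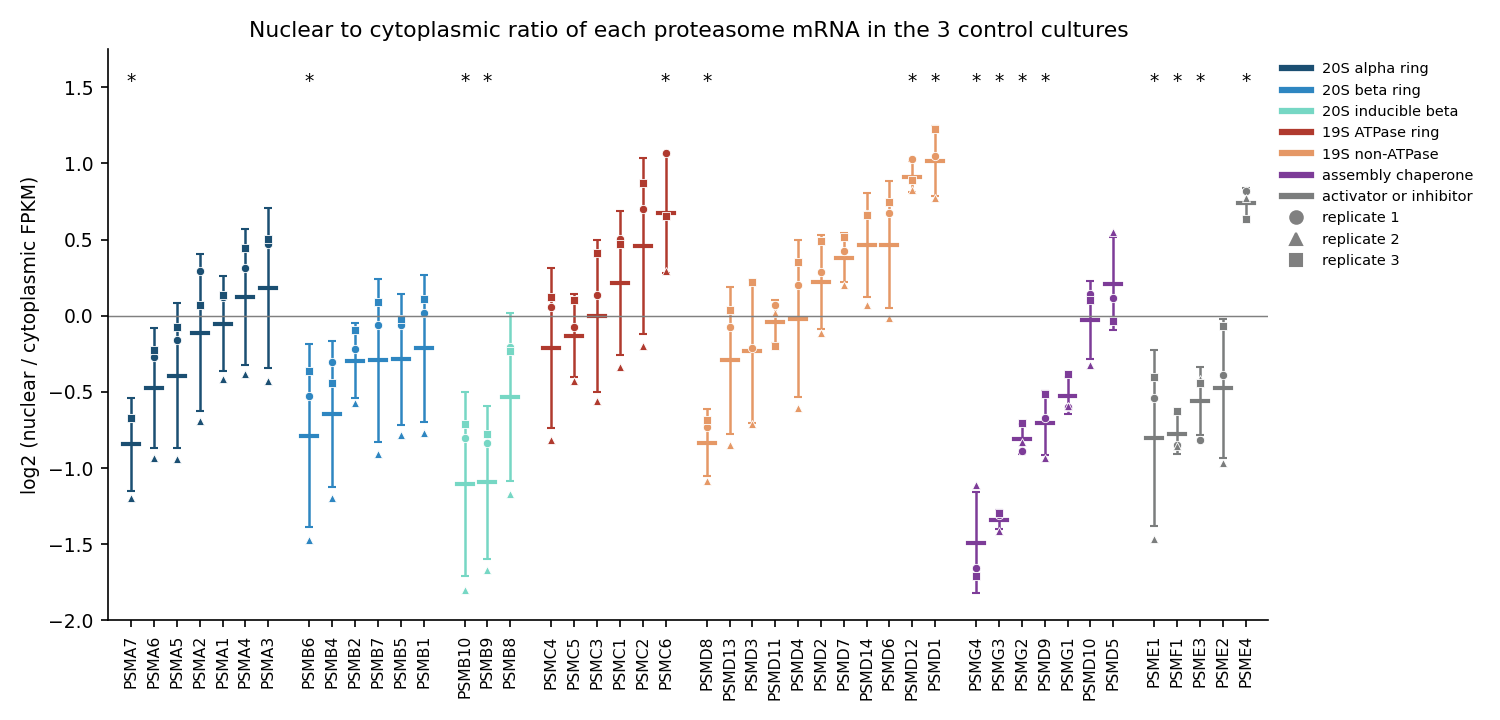
N/C ratio (log2 of nuclear over cytoplasmic/ER FPKM) of the 45 members in the 3 control cultures, grouped by role and ordered by mean. Points are cultures, horizontal bars means, vertical bars 1 SD, and asterisks mark the 16 members past the threshold in limma. The cap genes reach from PSMD8 at -0.83 to PSMD1 at 1.02, and all 4 PSMG genes lie below 0.

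With TPR A 8 members passed for the N/C ratio (4 higher, 4 lower; 28.4% of all genes) and with TPR D 10 (6 higher, 4 lower; 31.7% of all genes). With the culture as a block the counts were 18 (45.5% of all genes) and 20 (47.9%). The order of the members by N/C ratio was alike in the 3 cell populations, with Spearman's rho over the 45 genes of 0.90 between control and TPR A and 0.94 between control and TPR D, against 0.87 and 0.92 over protein-coding genes. These are descriptions across genes that share their libraries.

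Across the 45 members the N/C ratio in control cells was higher in genes with more exons (Spearman's rho = 0.61, and 0.63 without control replicate 2), and more weakly so over 12333 protein-coding genes (0.33). Within the core rho was 0.46 (n = 16) and within the cap 0.37 (n = 17). PSME4 has 47 exons, PSMD1 24 and PSMD2 19, and PSMB5, PSMG3 and PSMG4 have 3. PSMB5, at an N/C ratio of -0.29, lay well above PSMG3 and PSMG4. For the length of the pre-mRNA rho was 0.42 over the members and 0.37 over protein-coding genes, and for the length of the mRNA 0.37 and 0.40. Exon number and both lengths vary together, and the points share their libraries, so no p is given.

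**Figure D3:**
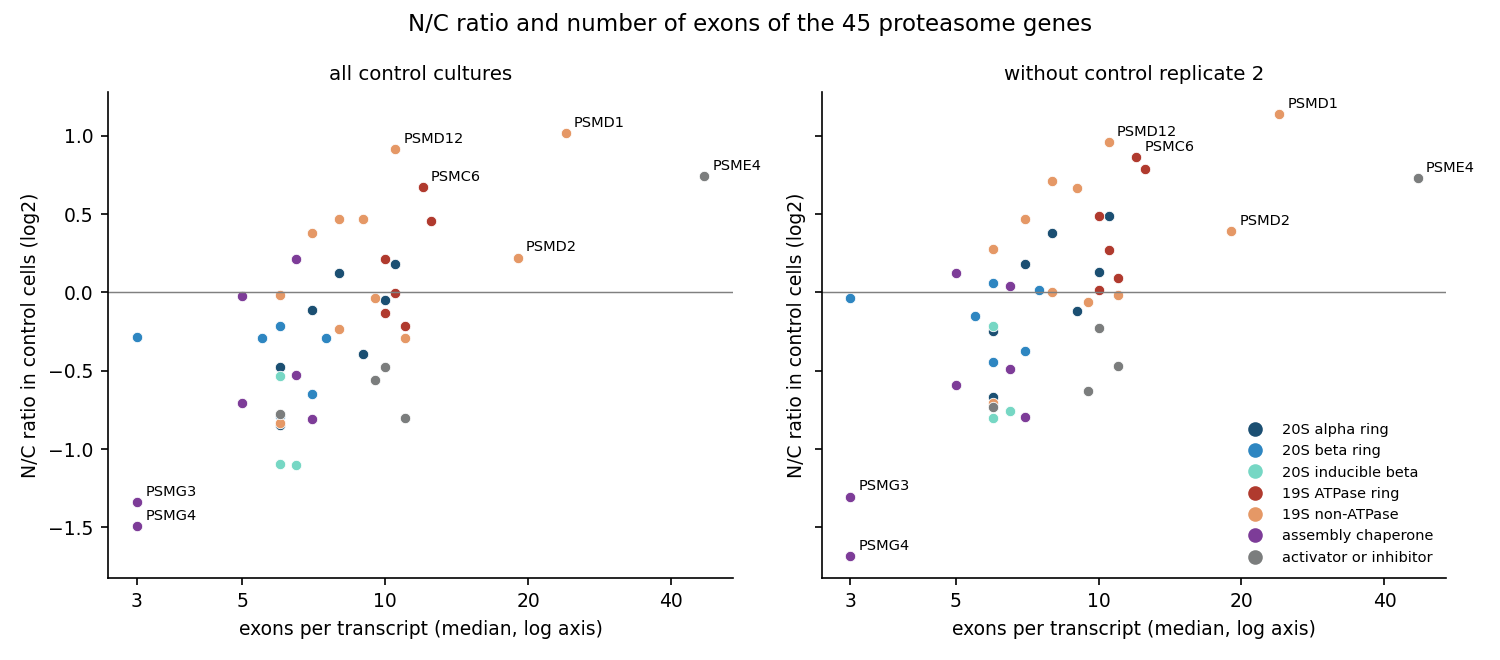
N/C ratio (log2, mean of the control cultures) of the 45 members against the median number of exons of their coding transcripts (log axis), with all control cultures on the left and without control replicate 2 on the right, and colours for the role. PSMG3 and PSMG4, with 3 exons, lie lowest and PSMD1 (24 exons) lies highest in both panels.

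Then the shRNAs were compared for the level in each fraction. No member passed the test in any comparison of a TPR shRNA with the control (limma, 45 members, adjusted p under 0.05). In total RNA 0.821% of all genes passed in the comparison of TPR A, 0.753% in that of TPR D and 1.14% with the shRNAs combined. In nuclear RNA it was 0.903% (TPR A) and 0.479% (TPR D), and in cytoplasmic/ER RNA 0.623% and 0.575%. In bulk RNA a lower level can come from fewer cells of a type or from less RNA per cell, which cannot be told apart.

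In total RNA most members had values below the control with both shRNAs. TPR A gave a median log2 difference of -0.23 (41 of 45 below 0) where protein-coding genes had -0.04, and TPR D gave -0.27 (40 of 45) where they had -0.05. The 6932 protein-coding genes within the members' range of levels had -0.12 and -0.14. For both shRNAs together it was -0.24 for the core (16 of 16 below 0), -0.33 for the cap (17 of 17), 0.09 for the assembly genes (3 of 7) and -0.35 for activators and the inhibitor (5 of 5). These medians rested on control replicate 2: without it the 45 members had 0.04 (TPR A) and -0.01 (TPR D). From replicate 1 alone they were -0.02 and 0.24, and from replicates 2 and 3 -0.36 and -0.48. The library names number replicate 1 in a separate series from replicates 2 and 3, and they do not say whether this marks a batch.

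At an unadjusted p under 0.05, which does not survive the correction, 1 member was lower with TPR A in total RNA (5.84% of all genes were), 5 with TPR D (7.96%) and 4 with both together (8.19%), and none was higher (6.8%, 6.67% and 7.91% of all genes). The 5 were PSMC5, PSMD2, PSMD5, PSME1 and PSME2. PSMD2 stood at 537, 1160 and 407 FPKM in control cells, 415, 501 and 456 FPKM with TPR A and 265, 428 and 335 FPKM with TPR D, and its control values overlapped those of both shRNAs. When control replicate 2 was left out, PSMD5 alone was below 0.05 in each of these comparisons (3.63%, 4.86% and 3.9% of all genes were lower at that level).

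PSMD5, a chaperone that holds ATPase subunits during assembly of the cap base, had the largest difference of all members for both shRNAs together when all cultures were used. It lies on chromosome 9 (123577774 to 123605229, minus strand, GRCh37). In total RNA it was at 87.6, 96.4 and 89.0 FPKM with the control shRNA, 63.2, 49.4 and 70.4 FPKM with TPR A and 33.0, 60.5 and 65.3 FPKM with TPR D. All 6 TPR-depleted libraries were below all 3 controls. The lowest value, 33.0 FPKM, came from TPR D replicate 1. That library correlated less with the other total libraries (r = 0.945) than TPR D replicates 2 and 3 did (0.972 and 0.973). The differences given next for TPR D and for both shRNAs include it. The log2 difference was -0.53 with TPR A (SE 0.20, limma adjusted p = 0.265), -0.77 with TPR D (SE 0.20, adjusted p = 0.0765) and -0.65 for both (SE 0.18, adjusted p = 0.0734). Without control replicate 2 the last was -0.64 (limma adjusted p = 0.272). PSMD5 was the only member whose TPR-depleted libraries were all below the controls (2.22% of members), and 2.98% of all genes had that pattern (5.89% without control replicate 2). In nuclear RNA it was at 75.0, 88.5 and 69.9 FPKM with the control shRNA, 60.5 to 72.9 FPKM with TPR A, which overlaps, and 61.5 to 66.5 FPKM with TPR D, which does not. In cytoplasmic/ER RNA the groups overlapped.

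**Figure D4:**
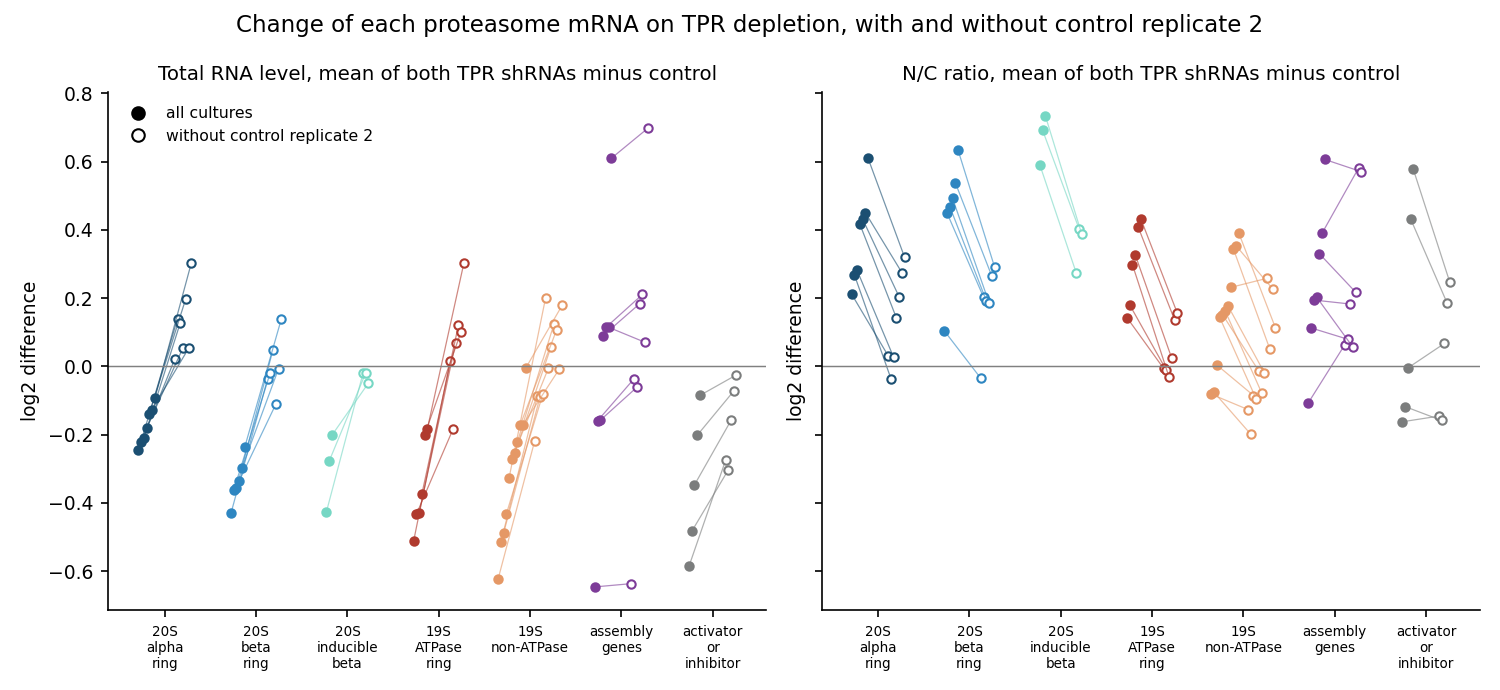
Log2 difference of each member between TPR-depleted cells (mean of both shRNAs) and control cells, by role, for the total RNA level (left) and the N/C ratio (right). Filled points use all cultures and open points leave out control replicate 2, with a line joining the values of a gene. Filled points lie below 0 for 41 of 45 members on the left and above 0 for 39 on the right, and 38 of 45 open points in each panel are nearer to 0 than the filled ones.

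In nuclear RNA the median difference was 0.14 (TPR A) and 0.10 (TPR D), and 0.02 and -0.06 without control replicate 2. In cytoplasmic/ER RNA it was -0.18 and -0.20, and -0.12 and -0.10 without that replicate. Values of all 16 core genes were below 0 in the cytoplasmic/ER fraction for each shRNA (medians -0.29 and -0.25), and none passed the test. Leaving out control replicate 2 gave medians of -0.22, with 15 of 16 below 0, and -0.15, with 16 of 16. At an unadjusted p under 0.05 limma called 0 members in nuclear RNA for TPR A (12.2% of all genes) and for TPR D (9.13%) and 0 in cytoplasmic/ER RNA for TPR A (11.6%). PSME1, an interferon-inducible activator subunit, was at 271, 253 and 259 FPKM there with the control shRNA and 119, 243 and 158 FPKM with TPR D, all lower, with a log2 difference of -0.63 (SE 0.30, limma adjusted p = 0.513). It was the only member at an unadjusted p under 0.05 in that comparison, where 5.04% of all genes were lower and 4.38% higher at that level.

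The N/C change, the N/C ratio of TPR-depleted minus that of control cells, was above 0 for most members, and no single one passed the test. In each of its 3 comparisons the percentage of all genes past the adjusted threshold was 0. At an unadjusted p under 0.05 limma called 0 members, and 1.47% (TPR A), 0.821% (TPR D) and 1.72% (both) of all genes in either direction. With the culture as a block, no member passed after adjustment either (lowest adjusted p = 0.536 in limma), but 9 were higher at an unadjusted p under 0.05 for TPR A (5.7% of all genes were), 3 for TPR D (2.96%) and 8 for both (5.74%). The 3 for TPR D were PSMA2, PSMA7 and PSMG3. This blocked fit includes control replicate 2. TPR A gave the members a median N/C change of 0.36 (39 of 45 above 0) and TPR D one of 0.26 (38 of 45). For both together it was 0.33 (39 of 45), where protein-coding genes within the members' range of levels had 0.05, and without control replicate 2 it was 0.11 (31 of 45).

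The core had the highest median of the 4 groups. For both shRNAs together the median N/C change was 0.46 for the core (16 of 16 above 0), 0.18 for the cap (15 of 17), 0.20 for the assembly genes (6 of 7) and -0.00 for activators and the inhibitor (2 of 5). Without control replicate 2 it was 0.20 (14 of 16), -0.01 (7 of 17), 0.18 (7 of 7) and 0.07 (3 of 5), so the medians of the core and the cap rested in large part on control replicate 2. In the alpha ring the change ran from 0.21 (PSMA1) to 0.61 (PSMA2), in the constitutive beta ring from 0.10 (PSMB2) to 0.63 (PSMB6) and in the inducible subunits from 0.59 (PSMB8) to 0.73 (PSMB10). In the ATPase ring it ran from 0.14 (PSMC5) to 0.43 (PSMC3) and among the non-ATPase subunits from -0.08 (PSMD12) to 0.39 (PSMD13). Among the assembly genes the extremes were PSMD5 (-0.11) and PSMG3 (0.61), and among activators and the inhibitor PSME4 (-0.16) and PSME1 (0.58).

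In 6 of the 45 members (13.3%) the N/C ratios of all 6 TPR-depleted cultures were above those of all control cultures, against 3.07% of all genes, and in none were they all below (1.53% of all genes). Without control replicate 2 the same share was 13.3% of members and 4.09% of all genes. The 6 were PSMA2, PSMA7, PSMB4, PSMB9, PSMD9 and PSMG3. They come from the alpha ring, the beta ring and the assembly genes, and none from the cap. A gene was chosen here because its values did not overlap, so the values below are a description.

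PSMG3, which pairs with PSMG4 in core assembly, had N/C ratios of -1.31, -1.41 and -1.30 with the control shRNA, -0.49, -0.76 and -1.03 with TPR A and -0.74, -0.76 and -0.62 with TPR D. The mean difference was 0.61 (SE 0.35, and 0.16 with the culture as a block). Its cytoplasmic/ER level was 113, 147 and 87.1 FPKM in control cells and 68.8 to 107 FPKM in TPR-depleted cells, which overlap. PSMD9, a chaperone of the cap base, had -0.67, -0.93 and -0.52 with the control shRNA, -0.33, -0.40 and -0.39 with TPR A and -0.37, -0.39 and -0.37 with TPR D, a narrow range among the depleted cultures. Its difference was 0.33 (SE 0.19).

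PSMB9 had N/C ratios of -0.83, -1.67 and -0.77 with the control shRNA, -0.18, -0.27 and -0.24 with TPR A and -0.47, -0.76 and -0.48 with TPR D. TPR A lay above TPR D as well as above the control in every culture, while the highest control (-0.77) and the lowest TPR D value (-0.76) were next to each other. The mean difference from the control was 0.69 (SE 0.37), and 0.40 without control replicate 2. PSMA2 had 0.29, -0.69 and 0.07 with the control shRNA, 0.42, 0.66 and 0.34 with TPR A and 0.51, 0.64 and 0.43 with TPR D. PSMA7 had -0.67, -1.20 and -0.67, then -0.30, -0.39 and -0.62, then -0.38, -0.20 and -0.48 in the same order of shRNAs. PSMB4 had -0.31, -1.19 and -0.44, then -0.10, -0.12 and -0.07, then -0.02, -0.25 and -0.10. In each of the 6 genes control replicate 2 was the lowest of the 9 cultures.

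**Figure D5:**
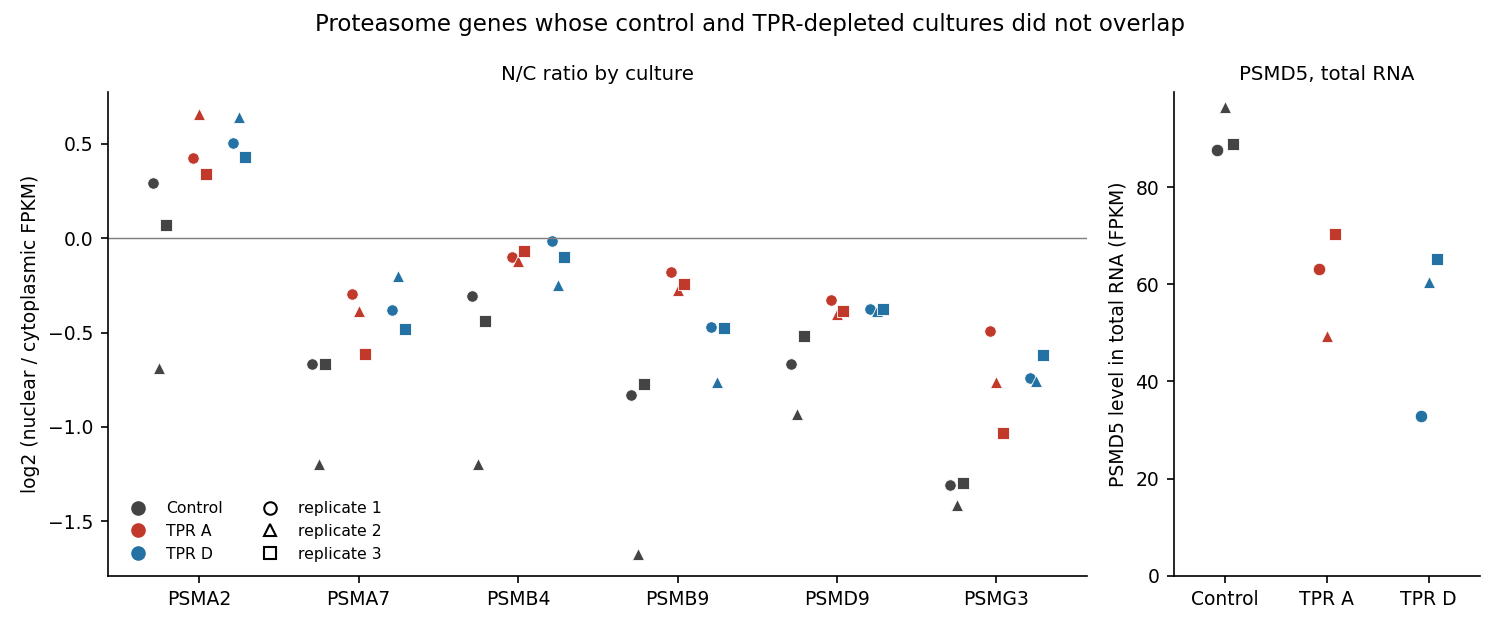
N/C ratio (log2 of nuclear over cytoplasmic/ER FPKM) of PSMA2, PSMA7, PSMB4, PSMB9, PSMD9 and PSMG3 in the 9 cultures (left) and PSMD5 FPKM in total RNA (right, axis from 0), with colours for the shRNA and shapes for the replicate. Each point is 1 culture. For each of the 6 genes the TPR-depleted cultures lie above the 3 controls, and for PSMD5 all 6 lie below.

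The N/C change went with gene structure among the members as among other mRNAs. For both shRNAs together Spearman's rho with the length of the pre-mRNA was -0.48 over the 45 members and -0.49 over protein-coding genes. Within the core it was -0.61 (n = 16) and within the cap -0.21 (n = 17). With the length of the mRNA it was -0.55 over the members and -0.35 over protein-coding genes, and with the number of exons -0.33 and -0.32. For mRNA length and exons the core had -0.46 and -0.24, and the cap -0.13 and -0.09. Leaving out control replicate 2, the members had -0.48 (pre-mRNA), -0.51 (mRNA) and -0.52 (exons). Of the 3 members with the most exons, PSME4 (-0.16) and PSMD1 (-0.08) had changes below 0 and PSMD2 (0.15) had one above 0.

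Genes that work with the proteasome were taken from a list of 34, all tested, with ubiquitin genes, receptors that bring substrates, and the factors that regulate transcription of proteasome genes. Their median difference for both shRNAs was -0.18 in total RNA (9 of 34 above 0) and their median N/C change was -0.07. Leaving out control replicate 2 these were -0.03 (15 of 34) and -0.03. Only RAD23B and UBQLN2 passed a comparison between shRNAs, both in nuclear RNA with TPR A (0.903% of all genes passed it). RAD23B, a shuttle that carries ubiquitinated proteins to the proteasome, was at 86.2, 137 and 77.1 FPKM with the control shRNA, 54.4, 38.5 and 41.7 FPKM with TPR A and 81.9 to 105 FPKM with TPR D (log2 difference for TPR A -1.12, limma adjusted p = 0.0399). TPR D overlapped the control. With TPR A, RAD23B was also below all controls in total RNA (50.9 to 68.0 against 83.3 to 122 FPKM). The same held in cytoplasmic/ER RNA (46.2 to 77.1 against 83.1 to 95.7 FPKM), and neither comparison passed the test.

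UBQLN2, another shuttle, was at 29.2, 21.1 and 32.7 FPKM with the control shRNA, 10.3, 13.9 and 19.2 FPKM with TPR A and 19.9, 16.6 and 23.0 FPKM with TPR D (-0.95, limma adjusted p = 0.0399). With TPR A, UBQLN2 was also below all controls in total RNA (11.3 to 13.0 against 19.7 to 32.4 FPKM). It was so in cytoplasmic/ER RNA too (8.03 to 9.44 against 15.7 to 18.4 FPKM), and neither comparison passed the test. When control replicate 2 was left out, UBQLN2 passed again in nuclear RNA (-1.13, limma adjusted p = 0.0262) and RAD23B did not (-0.87, adjusted p = 0.205). For the N/C change the list ran from -0.55 (DDI2, the protease that activates NFE2L1) to 0.72 (RPS27A, which encodes ubiquitin fused to a ribosomal protein), and in control cells 9 of the 34 had a higher nuclear and 6 a lower nuclear level (20.2% and 19.2% of all genes), with NFE2L1 at 1.49 and UBA6 at 1.89. Those counts were 8 and 3 when control replicate 2 was left out.

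The 9 antigen presentation genes of a second list, all tested, had a median difference of -0.60 in total RNA for both shRNAs (0 of 9 above 0), and -0.47 without control replicate 2, with 0 past the threshold. Their N/C change ran from -0.60 (ERAP1) to 1.06 (ERAP2), the aminopeptidases that trim peptides in the ER. The value of ERAP2 rests on low and scattered levels. Its N/C ratios were 0.77, 1.63 and 0.85 with the control shRNA, 3.01, 2.73 and -0.04 with TPR A and 1.14, 2.86 and 3.14 with TPR D. Cytoplasmic/ER values of ERAP2 were 0.560, 1.55 and 0.359 FPKM (control), 0.495, 0.283 and 4.83 FPKM (TPR A) and 0.291, 0.361 and 0.380 FPKM (TPR D). The inducible proteasome subunits, for comparison, had total RNA differences of -0.28 (PSMB8), -0.20 (PSMB9) and -0.43 (PSMB10), which were -0.02, -0.05 and -0.02 when control replicate 2 was left out.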

How the data were processed

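Poly(A)+ RNA was measured in 27 libraries of U2OS cells, 3 for each of 3 shRNAs and 3 fractions. The authors quantified reads with Salmon against Gencode release 19 (hg19) and deposited FPKM for each gene, and the step from Salmon's output to FPKM is not fully given in the sources used here. The tests were therefore run on a log scale. Columns were matched to samples by name, and 0 columns remained unmatched. Gene IDs were matched to GENCODE release 44 on GRCh37 (32776 matched, 1688 not), which also gave exon numbers and lengths.

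Genes with a mean above 1 FPKM outside the mitochondrial genome were kept (14611, of which 12381 protein-coding). Each library was scaled by its median-of-ratios factor and log2(FPKM + 0.1) was taken, so a log2 difference understates changes of low genes. All 9 groups were fitted together with limma 3.58.1 in R 4.3.3 (eBayes with trend), with Benjamini-Hochberg adjustment over all genes and a threshold of 0.05. The N/C change is the interaction of fraction and shRNA. Summaries and figures used Python 3.11.15, numpy 2.4.6, pandas 2.3.3, scipy 1.17.1 and matplotlib 3.10.9. The fit was tested on simulated data. Depth was estimated from low values: 87.8% of 28485 values of 1 to 5 reads were within 0.1 of a whole number.

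Members and lists were chosen with earlier results of these data known. Named genes were, in each role, the extremes of mean FPKM and of N/C change, the catalytic subunits and their inducible counterparts, members kept out by the minimum, TPR, and, from the lists of partners and antigen presentation genes, those past the threshold or extreme in N/C change. Genes named for their N/C ratio in control cells, for a low unadjusted p or for groups that did not overlap were named after their values were seen. Replicate numbers paired control with TPR A in total RNA (r = 0.137 to 0.324 in 3 pairs) and nuclear with cytoplasmic/ER libraries of a culture, as the data show it. They also paired TPR A with TPR D in cytoplasmic/ER RNA (0.398 to 0.597) and in nuclear RNA (0.131 to 0.266). Total and nuclear libraries of TPR A were paired as well (0.330 to 0.450). Control and TPR D were not paired in this way. Alternatives were other pseudocounts, minimum levels, scaling, blocks, fits without the trend or with the groups of a contrast alone, and leaving out each replicate.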

Additional observations from a re-analysis of the deposited data

How the results depend on the processing

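With the replicate number as a block 1 member, PSMD5, passed in total RNA for TPR D (limma adjusted p = 0.0393) and for both shRNAs (0.0394), where 0 passed without it. In total RNA the block changed no call for TPR A. The numbers paired control with TPR A and not with TPR D. In control cells 16 members passed for the N/C ratio, and the count without 1 replicate was 10 to 17, and from replicates 2 and 3 alone it was 6. With TPR A (8 members) the N/C count was 4 with no minimum level, 14 with the replicate block, 18 with the culture as a block, 2 from replicates 2 and 3 alone and 1 to 14 without 1 replicate. With TPR D (10 members) it was 20 with the culture as a block, 3 from replicates 2 and 3 alone and 1 at the lowest without 1 replicate. The median total difference for TPR D was 0.24 from replicate 1 alone. The cause of these differences was not tested, apart from the smaller number of samples when replicates are left out. No result changed its direction past a threshold. Depth limited little here: the lowest value of a member in a library was 3.87 FPKM, for PSMG4.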
